A study of Rattus norvegicus with 12 samples.

Results

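The Mlx, Max and Myc network is a family of transcription factors that pair through a basic helix-loop-helix leucine zipper. Its 10 members here were chosen by gene name: Mlxipl, ChREBPb, Mlxip, Mlx, Max, Mxd1, Mxd4, Mxi1, Mnt and Myc. All 10 were found among the 28727 named genes of the count table, and all 10 were among the 14669 genes that passed the filter on low counts and were tested.

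In this network, Max and Mlx are the shared partners, and a factor binds E-box DNA as a pair with one of them. Myc with Max activates genes of growth and ribosome production, while Mxd1, Mxi1, Mxd4 and Mnt compete with Myc for Max and recruit Sin3 co-repressors. The Mondo factors, ChREBP (Mlxipl) and MondoA (Mlxip), pair with Mlx and activate genes of sugar and lipid metabolism when glucose is high, and in the β-cell ChREBP is known for its part in the response to glucose.

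The RNA came from a subclone of INS-1, an insulinoma line of the rat whose insulin release follows glucose. The control cells received an adenovirus for GFP, and the others an adenovirus for mouse ChREBPβ, the short form of ChREBP, tagged with mCherry. Either virus was combined with 2 or 11 mM glucose for 48 h, a time given for the sequencing, whereas the study's general methods for adenovirus give a longer one. There were 3 libraries in each of the 4 groups, 12 in all, and the comparisons ask what the virus does at either glucose level, what glucose does with either virus, and whether the effect of the virus differs between the glucose levels. The study describes the values from this sequencing as averages of independent experiments, while the labels do not say which libraries were made together, and the p-values measure the spread between the libraries of a group.

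Libraries with GFP at 2 mM held 25.8, 32.9 and 30.2 M counts with a gene name, and those with GFP at 11 mM held 44.4, 36.2 and 46.7 M. Libraries labelled ChREBPβ held 28.6, 57.7 and 57.3 M at 2 mM and 60.5, 59.2 and 57.1 M at 11 mM. Levels are given as CPM, counts set against the library's total and scaled by edgeR's TMM factors, which lay between 0.958 and 1.06, and they are relative to the bulk of the genes in a library. Differences are log2 fold changes with their standard error (SE) from edgeR's quasi-likelihood fit of all 12 libraries. A gene counted as changed when its Benjamini-Hochberg adjusted p over the 14669 genes was under 0.05 and its change was at least 1.2-fold, which is 0.26 on the log2 scale. Library totals in place of TMM moved the median log2 fold change of all tested genes with the virus from -0.02 to -0.12 at 2 mM and from -0.02 to -0.10 at 11 mM. The share of changed genes that were higher with the virus then went from 47.5% to 33.2% at 2 mM and from 42.9% to 29.3% at 11 mM.

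The cell type was checked on its markers. All 9 β-cell markers were present, and their summed level was 23361, 24757 and 26288 CPM (GFP, 2 mM) and 20845, 18996 and 20604 CPM (GFP, 11 mM). Under ChREBPβ it was 12646, 13047 and 12824 CPM (2 mM) and 11945, 12502 and 12412 CPM (11 mM). The libraries labelled ChREBPβ thus lay below all GFP libraries, and the most abundant marker was Ins1 in each GFP library and Chga in each library labelled ChREBPβ. Ins1 fell from between 10817 and 12660 CPM with GFP at 2 mM to between 4224 and 4365 CPM with ChREBPβ at 2 mM. Of the 9 markers, 1 was higher and 8 lower with the virus at 2 mM (all genes 21.0% and 23.2%). At 11 mM 1 was higher and 7 lower (14.3% and 19.1%), and the lower count was 6 by DESeq2. The median log2 fold changes of the 9 markers were -1.06 and -0.78, beside -0.02 over all genes in either comparison. The higher one was Slc2a2, at 0.50 and 0.46. With glucose in GFP cells 0 were higher and 7 lower (all genes 10.2% and 10.0%), with a median of -0.45. In the libraries labelled ChREBPβ glucose raised 0 and lowered 3 (all genes 0.988% and 2.88%), with a median of -0.24.

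Of the 4 markers of other islet cells (Gcg, Sst, Ppy and Ghrl), Gcg took nearly all of the summed level, which read 1590, 1668 and 1617 CPM (GFP, 2 mM), 1720, 1606 and 1648 CPM (GFP, 11 mM), 432.4, 441.9 and 430.9 CPM (ChREBPβ, 2 mM) and 452.4, 482.6 and 502.8 CPM (ChREBPβ, 11 mM). Sst and Ppy had at most 2 and 4 counts in a library. The summed level of the 4 duct markers read 0.588, 0.933 and 0.994 CPM (GFP, 2 mM), 1.02, 1.23 and 1.02 CPM (GFP, 11 mM), 8.23, 8.09 and 8.27 CPM (ChREBPβ, 2 mM) and 8.80, 8.14 and 9.69 CPM (ChREBPβ, 11 mM). Sox9 was nearly all of it, while Cftr and Spp1 had 0 counts in each library and Krt19 at most 2. Markers of acinar cells, fibroblasts, endothelium and immune cells summed to between 0 and 1.86 CPM in a library, with Cela1, Col1a1, Kdr and Cd68 as their most abundant genes on the mean and with Prss1, Pnlip, Dcn, Lum and Ptprc at 0. Kdr, at most 1.80 CPM, had a log2 fold change with the virus of -0.81 at 2 mM and -0.98 at 11 mM, and counted as changed, though not at 2 mM without GFP 2 mM c (-0.71) or ChREBPβ 2 mM b (-0.69). Cd68, at most 1.11 CPM, had 1.04 at 2 mM, which counted, and 0.75 at 11 mM, which did not. The value of Cd68 at 2 mM no longer counted without GFP 2 mM b (0.96), GFP 2 mM c (0.97) or ChREBPβ 2 mM a (0.76), and that at 11 mM counted without GFP 11 mM c (1.17). In such bulk samples fewer cells of a type and less RNA per cell cannot be told apart, and what part the lower β-cell markers, the higher Sox9 or the values of Kdr and Cd68 have in the members' values was not tested.

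The comparisons share groups of libraries, so their counts are set side by side and not compared by an overlap. With the virus at 2 mM, 4 of the 10 members changed, beside 44.1% of all tested genes; 2 were higher (all genes 21.0%) and 2 lower (23.2%). With the virus at 11 mM, 5 members changed, beside 33.4% of all genes, of which 4 were higher (14.3%) and 1 lower (19.1%). Raising glucose in GFP cells changed 3 members, beside 20.2% of all genes, 1 higher (10.2%) and 2 lower (10.0%). In the libraries labelled ChREBPβ the same rise in glucose changed 1 member, which was lower, beside 3.87% of all genes (0.988% higher and 2.88% lower). Between ChREBPβ at 11 mM and GFP at 2 mM, 5 members changed, beside 50.5% of all genes, and between ChREBPβ at 2 mM and GFP at 11 mM it was 4, beside 27.0%. The effect of the virus differed between 11 and 2 mM (the interaction) for 1 member, Myc, beside 6.31% of all genes.

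**Figure D1:**
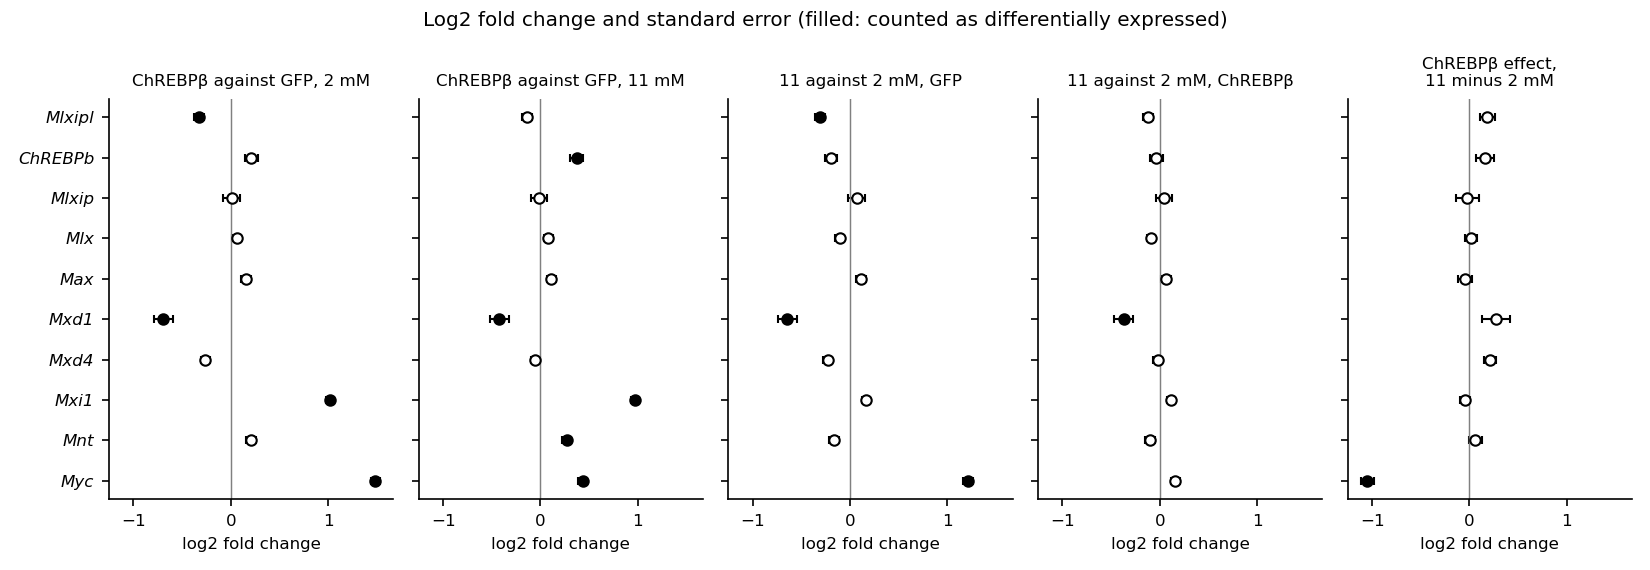
Log2 fold change (horizontal axis) of each member (listed at the left) in 4 comparisons and in the difference of the virus effects, with bars of 1 standard error; filled points counted as changed. Mxi1 and Myc lie to the right and Mxd1 to the left in both virus comparisons, under each scaling tried, while Mlx and Mlxip lie near 0 and change sign with the scaling.

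Mlxipl encodes ChREBP, the Mondo factor that responds to glucose, and its count was set beside the labels, which it could not check. In GFP cells Mlxipl read 240.3, 251.8 and 277.0 CPM for 2 mM glucose and 201.8, 212.4 and 207.5 CPM for 11 mM. Under ChREBPβ the values were 203.3, 211.8 and 198.7 CPM for 2 mM and 200.6, 180.7 and 182.7 CPM for 11 mM. Since no rise of the rat gene marks the libraries with the mouse construct, the groups are named by their labels. GFP at 2 mM stood above the other 3 groups without overlap, while the neighbours among those 3 overlapped. With the virus its log2 fold change was -0.33 at 2 mM (SE 0.0517, edgeR adjusted p = 2.03e-05) and -0.14 at 11 mM (SE 0.0515, edgeR adjusted p = 0.0295), which is below the minimum fold change. Raising glucose in GFP cells changed Mlxipl by -0.31 (SE 0.0517, edgeR adjusted p = 0.000113), which was -0.25 and under the minimum fold change without GFP 2 mM c. In the libraries labelled ChREBPβ the change with glucose was -0.12 (SE 0.0515, edgeR adjusted p = 0.177), and the difference of the virus effects was 0.19 (SE 0.0729, edgeR adjusted p = 0.138).

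ChREBPb is a further entry of the table, and which reads it counts, or whether it shares reads with Mlxipl, is not stated in the sources used here. In GFP cells ChREBPb read 73.2, 78.0 and 82.2 CPM for 2 mM glucose and 64.7, 73.3 and 66.1 CPM for 11 mM. For ChREBPβ these were 90.7, 89.6 and 90.1 CPM (2 mM) and 98.2, 84.3 and 81.4 CPM (11 mM). At either glucose level all 3 libraries labelled ChREBPβ lay above the GFP libraries of that level, but neighbours in the order of the 4 groups overlapped. With the virus the log2 fold change was 0.21 at 2 mM (SE 0.0646, edgeR adjusted p = 0.00841), which is below the minimum fold change, and 0.37 at 11 mM (SE 0.0638, edgeR adjusted p = 6.90e-05). The largest of the 6 differences was between GFP at 11 mM and ChREBPβ at 2 mM, the lowest and the highest group, with a log2 fold change of 0.41 (SE 0.0642, edgeR adjusted p = 3.42e-05). Raising glucose in GFP cells gave -0.19 (SE 0.0652, edgeR adjusted p = 0.0259), which is below the minimum fold change.

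Within a library the scaling cancels, so ChREBPb was also set against Mlxipl by their counts. The ratio was 0.304, 0.310 and 0.297 (GFP, 2 mM) and 0.320, 0.345 and 0.319 (GFP, 11 mM). Among libraries labelled ChREBPβ the ratios were 0.446, 0.423 and 0.453 (2 mM) and 0.490, 0.467 and 0.446 (11 mM). All 6 libraries labelled ChREBPβ thus lay above all 6 GFP libraries, and the mean ratio was 1.45 times that of GFP at 2 mM with ChREBPβ at 2 mM and 1.54 times with ChREBPβ at 11 mM.

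Mlxip encodes MondoA, the second Mondo factor. Its level lay between 30.5 and 39.9 CPM over all 12 libraries, at 32.9, 30.9 and 34.6 CPM (GFP, 2 mM), 30.5, 39.9 and 32.9 CPM (GFP, 11 mM), 32.4, 34.4 and 32.2 CPM (ChREBPβ, 2 mM) and 37.8, 32.7 and 31.6 CPM (ChREBPβ, 11 mM). All 4 groups overlapped, and the 6 comparisons gave log2 fold changes from -0.06 to 0.07. The signs of its virus effects depend on the scaling: the value at 2 mM was 0.01 and became -0.05 with upper quartile factors and -0.09 with library totals.

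Mlx is the partner of the Mondo factors and of some repressors. It lay between 157.3 and 188.1 CPM, and read 165.5, 173.4 and 184.0 CPM in GFP cells for 2 mM glucose and 164.5, 157.3 and 163.9 CPM for 11 mM. Cells labelled ChREBPβ gave 181.6, 176.3 and 188.1 CPM for 2 mM and 162.6, 172.4 and 177.9 CPM for 11 mM. Neighbours in the order of the groups overlapped. With the virus Mlx changed by 0.06 at 2 mM and 0.08 at 11 mM (SE 0.0466 and 0.0462), and these became -0.04 and -0.01 with library totals. In the RefSeq annotation (GRCr8) Mlx overlaps Psmc3ip, another gene of the table, and the sources used here do not say whether strands were counted apart.

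Max is the partner of Myc and of the Mxd proteins. Max read 30.9, 30.1 and 31.2 CPM (GFP, 2 mM), 32.1, 32.4 and 35.0 CPM (GFP, 11 mM), 33.5, 33.5 and 35.6 CPM (ChREBPβ, 2 mM) and 35.7, 36.0 and 35.9 CPM (ChREBPβ, 11 mM). The lowest and the highest group were apart from their neighbours, while GFP at 11 mM and ChREBPβ at 2 mM overlapped. The whole step from GFP at 2 mM to ChREBPβ at 11 mM was a log2 fold change of 0.22 (SE 0.0515, edgeR adjusted p = 0.000786), which is below the minimum fold change.

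Promoters of the members were read from RefSeq (GRCr8), each from 250 bases before to 50 bases after the start site, and searched for the E-box letters CACGTG, which read the same on both strands. Windows were found for 8 of the 10 members, the exceptions being ChREBPb and Myc. The letters were in 4 of these 8, Mlx, Max, Mxd4 and Mnt, and in 7.08% of all 27457 genes with a window. The windows of Mlxipl, Mlxip, Mxd1 and Mxi1 do not hold them. The variant CACGCG, searched on both strands, was in the window of 0 of the 8 members and in 9.54% of all genes with a window. The 4 windows are printed with CACGTG in capitals to show where the E-box lies in genes of an E-box binding family, and a match is a description and not a site of binding. It begins 70 bases before the start site in Mlx (chr10:86519636-86519935, plus strand), 33 in Max (chr6:101395241-101395540, minus strand), 197 in Mxd4 (chr14:80786531-80786830, plus strand) and 123 in Mnt (chr10:60197709-60198008, plus strand).
Mlx: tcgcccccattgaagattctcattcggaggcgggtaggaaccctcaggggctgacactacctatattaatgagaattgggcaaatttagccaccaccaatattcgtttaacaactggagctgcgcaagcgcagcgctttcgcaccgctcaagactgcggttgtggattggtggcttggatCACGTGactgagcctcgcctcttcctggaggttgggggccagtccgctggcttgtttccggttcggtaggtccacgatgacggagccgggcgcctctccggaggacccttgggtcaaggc
Max: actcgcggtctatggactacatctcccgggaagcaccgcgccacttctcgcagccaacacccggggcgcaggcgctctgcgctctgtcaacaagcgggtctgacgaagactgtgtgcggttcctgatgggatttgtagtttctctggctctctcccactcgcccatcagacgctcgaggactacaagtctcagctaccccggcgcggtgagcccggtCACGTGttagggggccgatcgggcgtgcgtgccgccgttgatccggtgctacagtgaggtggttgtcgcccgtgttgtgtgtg
Mxd4: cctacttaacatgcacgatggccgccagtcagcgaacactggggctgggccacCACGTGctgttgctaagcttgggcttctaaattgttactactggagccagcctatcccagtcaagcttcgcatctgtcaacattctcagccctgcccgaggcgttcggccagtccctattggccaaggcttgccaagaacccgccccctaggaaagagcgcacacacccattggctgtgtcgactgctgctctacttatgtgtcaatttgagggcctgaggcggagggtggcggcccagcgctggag
Mnt: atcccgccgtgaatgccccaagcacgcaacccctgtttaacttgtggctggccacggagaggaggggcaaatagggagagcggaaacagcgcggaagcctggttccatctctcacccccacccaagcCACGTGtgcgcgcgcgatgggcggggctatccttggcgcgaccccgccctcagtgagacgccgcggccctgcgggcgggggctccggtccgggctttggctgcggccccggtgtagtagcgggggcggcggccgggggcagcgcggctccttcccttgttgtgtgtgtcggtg

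The 4 members whose windows hold CACGTG had log2 fold changes with the virus between -0.26 and 0.21 at 2 mM and between -0.05 and 0.27 at 11 mM.

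Mxd1 is a repressor that pairs with Max. The GFP libraries had Mxd1 at 9.85, 9.79 and 9.26 CPM for 2 mM glucose and 6.46, 6.69 and 5.39 CPM for 11 mM. The libraries labelled ChREBPβ gave 5.94, 6.22 and 5.71 CPM for 2 mM and 4.54, 4.56 and 4.72 CPM for 11 mM. GFP at 2 mM was the highest group and ChREBPβ at 11 mM the lowest, both apart from the rest, while GFP at 11 mM and ChREBPβ at 2 mM overlapped. With the virus its log2 fold change was -0.69 at 2 mM (SE 0.0988, edgeR adjusted p = 5.61e-06) and -0.42 at 11 mM (SE 0.0998, edgeR adjusted p = 0.00159). Glucose changed it by -0.64 in GFP cells (SE 0.0987, edgeR adjusted p = 4.24e-05). In the libraries labelled ChREBPβ the change with glucose was -0.37 (SE 0.0998, edgeR adjusted p = 0.0265), and all 3 libraries at 11 mM lay below those at 2 mM. This last call was lost on leaving out any 1 of the 6 libraries labelled ChREBPβ, where the adjusted p of edgeR lay between 0.0600 and 0.113 and the value between -0.41 and -0.34. The difference of the virus effects was 0.27 (SE 0.140, edgeR adjusted p = 0.284).

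Mxd4 is a further Mxd repressor. Mxd4 read 87.2, 95.0 and 89.6 CPM in GFP cells kept in 2 mM glucose and 77.3, 78.8 and 75.8 CPM in those kept in 11 mM. Under ChREBPβ the values were 76.2, 73.6 and 77.3 CPM for 2 mM and 76.8, 74.7 and 72.3 CPM for 11 mM. GFP at 2 mM alone stood apart, above 3 groups whose neighbours overlapped. Its fall with the virus at 2 mM was -0.26 (SE 0.0452, edgeR adjusted p = 5.83e-05), just under the minimum fold change. It passed that minimum with upper quartile factors (-0.32), with library totals (-0.36) and without GFP 2 mM a (-0.29), GFP 2 mM c (-0.27) or ChREBPβ 2 mM c (-0.27). Between ChREBPβ at 11 mM and GFP at 2 mM it was -0.28 (SE 0.0448, edgeR adjusted p = 1.76e-05) and counted as changed, but not without GFP 2 mM b (-0.24) or ChREBPβ 11 mM c (-0.26). Glucose gave -0.23 in GFP cells (SE 0.0451, edgeR adjusted p = 0.000520) and -0.02 in those labelled ChREBPβ (SE 0.0446, edgeR adjusted p = 0.851). The difference of the virus effects on Mxd4 was 0.21 (SE 0.0634, edgeR adjusted p = 0.0484), which is below the minimum fold change.

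Mxi1, also called Mxd2, is the Mxd repressor that moved the other way. In GFP cells Mxi1 read 65.3, 65.7 and 62.4 CPM for 2 mM glucose and 71.4, 72.0 and 72.9 CPM for 11 mM. For ChREBPβ these were 127.8, 132.0 and 132.5 CPM (2 mM) and 139.6, 142.0 and 143.7 CPM (11 mM). All 4 groups were apart from their neighbours, in the order GFP at 2 mM, GFP at 11 mM, ChREBPβ at 2 mM and ChREBPβ at 11 mM. With the virus the log2 fold change was 1.02 at 2 mM (SE 0.0405, edgeR adjusted p = 2.77e-14) and 0.98 at 11 mM (SE 0.0395, edgeR adjusted p = 6.87e-14), and the difference of these effects was -0.05 (SE 0.0562, edgeR adjusted p = 0.720). The steps with glucose were small, at 0.16 in GFP cells (SE 0.0408, edgeR adjusted p = 0.00438) and 0.12 in those labelled ChREBPβ (SE 0.0386, edgeR adjusted p = 0.0775), both under the minimum fold change. Most of the range of this gene over the 4 groups thus lies between the viruses.

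Mnt is a repressor of broad expression that pairs with Max or Mlx. The GFP libraries had Mnt at 52.4, 51.8 and 55.9 CPM for 2 mM glucose and 46.4, 48.2 and 48.4 CPM for 11 mM. The libraries labelled ChREBPβ gave 62.1, 59.8 and 63.0 CPM for 2 mM and 60.6, 55.6 and 56.0 CPM for 11 mM. At either glucose level the libraries labelled ChREBPβ lay above those with GFP, but GFP at 2 mM and ChREBPβ at 11 mM overlapped. Its log2 fold change with the virus was 0.21 at 2 mM (SE 0.0497, edgeR adjusted p = 0.00136), which is below the minimum fold change, and 0.27 at 11 mM (SE 0.0488, edgeR adjusted p = 0.000126). The value at 11 mM fell under the minimum with upper quartile factors (0.24), with library totals (0.19) and without GFP 11 mM a (0.25) or ChREBPβ 11 mM a (0.23). Between ChREBPβ at 2 mM and GFP at 11 mM it was 0.37 (SE 0.0491, edgeR adjusted p = 4.08e-06).

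Myc, the growth factor-responsive activator of the network, had the widest range of the 10 members as a ratio, with a highest group mean 3.13 times the lowest. Myc read 37.0, 38.9 and 42.0 CPM in GFP cells kept in 2 mM glucose and 87.7, 90.2 and 95.2 CPM in those kept in 11 mM. Under ChREBPβ the values were 114.1, 108.1 and 109.0 CPM for 2 mM and 122.3, 123.8 and 123.6 CPM for 11 mM. All 4 groups were apart from their neighbours, in the same order as for Mxi1, but of the steps between neighbouring groups the largest was that from GFP at 2 mM to GFP at 11 mM. With the virus the log2 fold change was 1.49 at 2 mM (SE 0.0505, edgeR adjusted p = 2.59e-15) and 0.44 at 11 mM (SE 0.0470, edgeR adjusted p = 2.02e-07). Glucose raised Myc by 1.21 in GFP cells (SE 0.0505, edgeR adjusted p = 1.47e-12). In the libraries labelled ChREBPβ glucose gave 0.16 (SE 0.0468, edgeR adjusted p = 0.0422), which is below the minimum fold change, with all 3 libraries at 11 mM above those at 2 mM. The difference of the virus effects was -1.05 (SE 0.0688, edgeR adjusted p = 3.47e-09), the one interaction among the members that counted as changed. Between ChREBPβ at 2 mM and GFP at 11 mM the step was 0.28 (SE 0.0474, edgeR adjusted p = 8.52e-05), which fell under the minimum fold change with upper quartile factors (0.24), with library totals (0.21) and without GFP 11 mM a (0.25) or ChREBPβ 2 mM a (0.26).

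**Figure D2:**
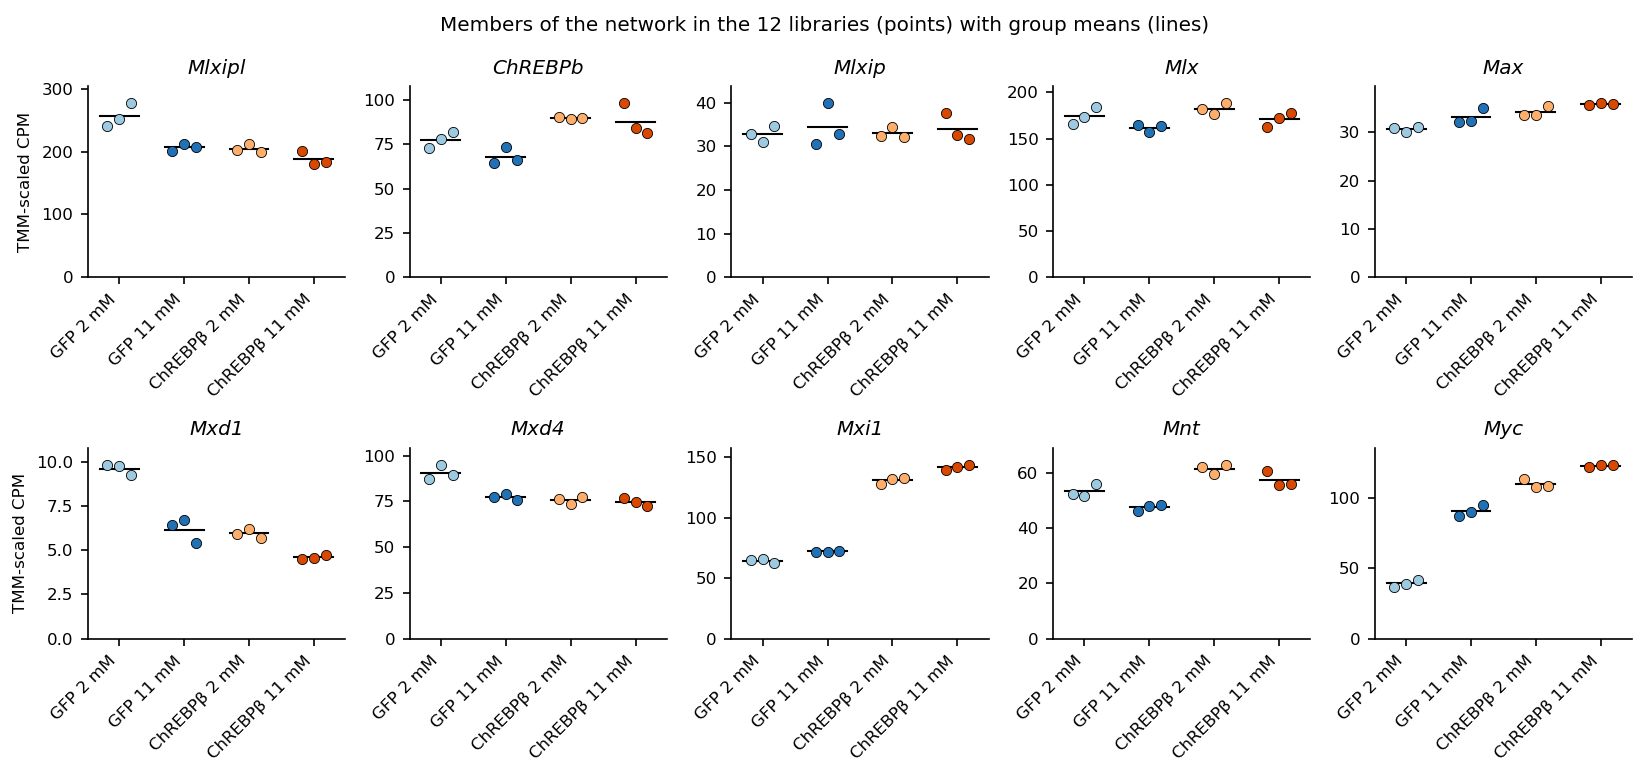
Level of each member in TMM-scaled CPM (vertical axis, from 0) in the 12 libraries, with points for libraries and lines for the means of the 4 groups. Mxi1 steps up mainly between the viruses, Myc mainly between GFP at 2 mM and the other 3 groups, and Mxd1 steps down.

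The balance of Myc and its competitors was followed as ratios of counts within a library, which are free of scaling and are compared here between groups only. Myc per Mxd1 was 3.76, 3.97 and 4.54 (GFP, 2 mM) and 13.6, 13.5 and 17.7 (GFP, 11 mM). Among libraries labelled ChREBPβ the ratios were 19.2, 17.4 and 19.1 (2 mM) and 27.0, 27.2 and 26.2 (11 mM). The mean of ChREBPβ at 11 mM was 6.55 times that of GFP at 2 mM, and the 2 groups in between overlapped in 1 library of each, at 17.7 and 17.4.

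Myc per Mxi1 followed another order. It was 0.566, 0.592 and 0.674 (GFP, 2 mM) and 1.23, 1.25 and 1.31 (GFP, 11 mM). Among libraries labelled ChREBPβ the ratios were 0.893, 0.819 and 0.822 (2 mM) and 0.876, 0.872 and 0.860 (11 mM). GFP at 11 mM was thus the highest group and the groups labelled ChREBPβ lay between the GFP groups, overlapping each other. Myc per Max rose from a mean of 1.28 ± 0.0779 (SD, n = 3) with GFP at 2 mM to 2.75 ± 0.0355 with GFP at 11 mM, 3.23 ± 0.170 with ChREBPβ at 2 mM and 3.44 ± 0.0123 with ChREBPβ at 11 mM. Among the repressors, Mxi1 per Mxd1 rose from a mean of 6.69 with GFP at 2 mM to 30.8 with ChREBPβ at 11 mM, and Mxi1 per Mxd4 from 0.712 to 1.90.

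**Figure D3:**
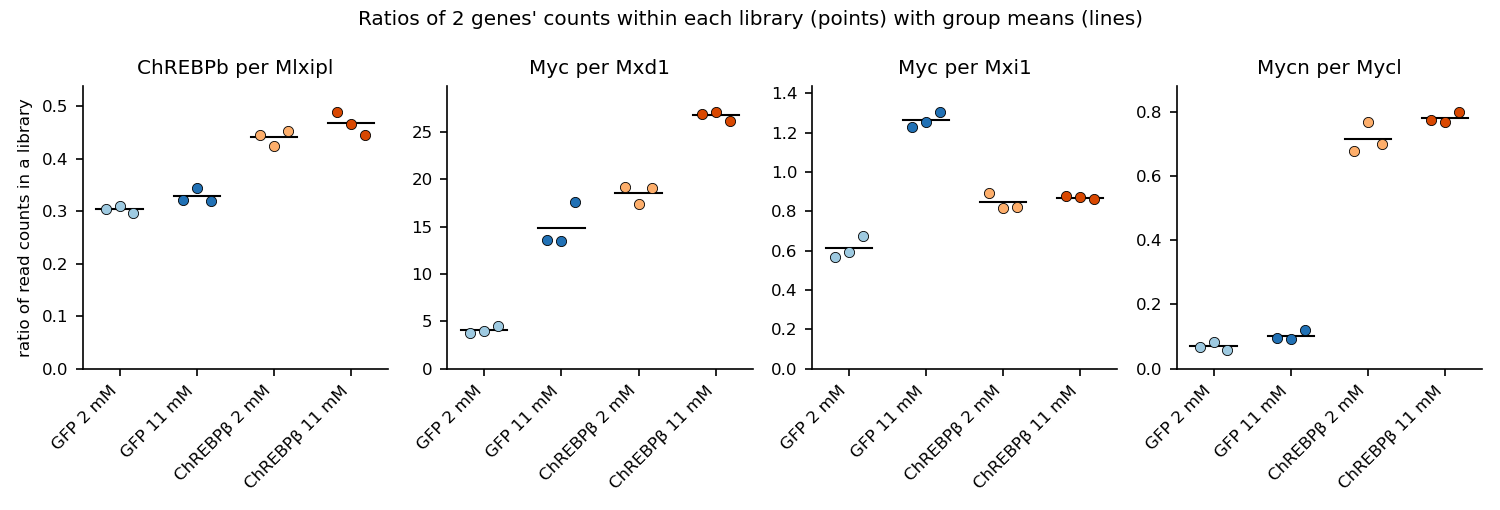
Ratio of the read counts of 2 genes within a library (vertical axis, from 0), with points for the 12 libraries and lines for the means of the 4 groups. ChREBPb per Mlxipl and Mycn per Mycl separate the viruses, Myc per Mxd1 rises over the groups, and Myc per Mxi1 is highest with GFP at 11 mM.

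Correlations between members over the 12 libraries mostly restate the group means. They were therefore also computed on what is left after each group's mean was taken off, as a description of log2 CPM. All members in a library share its depth and its scaling, which differ between libraries. With group means included, Pearson's r of Myc was -0.95 with Mxd1, -0.94 with Mxd4, 0.88 with Max and 0.81 with Mxi1 (n = 12 libraries), and within groups these pairs had r of -0.60, 0.03, 0.38 and -0.52. The pairs of members with the largest r in size within groups were then picked out. Their r was 0.82 between ChREBPb and Mlxipl, 0.82 between ChREBPb and Mlxip and -0.87 between Max and Mxd1. These rest on 12 libraries less the 4 group means taken off. ChREBPb and Mnt had r of 0.94 with group means and 0.77 within groups.

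The genes whose log2 CPM was most like that of a member over the 12 libraries were sought among 10468 genes whose mean reached 5 CPM, as a description. For Myc these were Txnip (r = 0.994), Mthfd1 (0.993) and Lcp1 (0.993). For Mlxipl they were Actn1 (0.987), Vwa5b2 (0.979) and Abcc8 (0.971), and for ChREBPb Myh14 (0.955), Kif1a (0.953) and Rere (0.949). Txnip read 26.8, 24.3 and 27.7 CPM (GFP, 2 mM), 334.5, 347.2 and 370.3 CPM (GFP, 11 mM), 449.9, 471.7 and 448.4 CPM (ChREBPβ, 2 mM) and 662.3, 658.8 and 677.3 CPM (ChREBPβ, 11 mM). Lcp1 had a log2 fold change with the virus of 1.69 at 2 mM and 0.55 at 11 mM, beside 1.49 and 0.44 for Myc. Mlxipl and Actn1 had -0.33 and -0.34 at 2 mM and -0.14 and -0.19 at 11 mM, and with library totals Actn1 counted as changed at 11 mM (-0.27).

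Other genes of the network outside the 10 were taken from a list of 4, of which 3 were tested, Mycn, Mycl and Mga; Mxd3 is not in the table under that name and was not analysed here. Mycn, a paralogue of Myc, was at 1.80, 2.33 and 1.76 CPM in GFP cells for 2 mM glucose and 2.17, 1.98 and 2.43 CPM for 11 mM. For ChREBPβ these were 10.5, 12.2 and 11.1 CPM (2 mM) and 10.6, 11.7 and 13.6 CPM (11 mM). All 6 libraries labelled ChREBPβ lay above all 6 with GFP, with a log2 fold change of 2.52 at 2 mM (SE 0.137, edgeR adjusted p = 4.79e-12) and 2.44 at 11 mM (SE 0.125, edgeR adjusted p = 2.69e-12). Unlike Myc, Mycn gave 0.16 with glucose in GFP cells (SE 0.166, edgeR adjusted p = 0.510), where its groups overlapped, and its difference of virus effects was -0.08 (SE 0.195, edgeR adjusted p = 0.870).

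Mycl, the further paralogue, moved the other way. Mycl read 26.5, 27.8 and 29.8 CPM (GFP, 2 mM), 22.6, 21.8 and 20.1 CPM (GFP, 11 mM), 15.5, 15.9 and 15.9 CPM (ChREBPβ, 2 mM) and 13.7, 15.3 and 16.9 CPM (ChREBPβ, 11 mM). The 2 groups labelled ChREBPβ overlapped and the others stood apart. With the virus it changed by -0.83 at 2 mM (SE 0.0763, edgeR adjusted p = 1.50e-08) and -0.49 at 11 mM (SE 0.0746, edgeR adjusted p = 1.78e-05), and with glucose in GFP cells by -0.39 (SE 0.0746, edgeR adjusted p = 0.000448). Its difference of virus effects was 0.34 (SE 0.107, edgeR adjusted p = 0.0574), and it counted as changed with upper quartile factors (0.36), with library totals (0.35), by DESeq2 (0.35), with no filter (0.33) and without GFP 2 mM a (0.37) or ChREBPβ 11 mM a (0.41). In counts, Mycn per Mycl rose from a mean of 0.0703 with GFP at 2 mM and 0.103 with GFP at 11 mM to 0.715 and 0.781 with ChREBPβ. Mga, a large repressor that pairs with Max, had log2 fold changes of 0.01 at 2 mM and -0.00 at 11 mM with the virus, in overlapping groups.

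Genes that ChREBP and MondoA are known to activate were taken from a list of 16, of which 14 were tested. This list was chosen with earlier results of these data known, so its counts are a description and no independent test. With the virus at 2 mM, 11 of the 14 were higher and 1 lower (all genes 21.0% and 23.2%), and the median log2 fold change was 1.78, beside -0.02 over all tested genes. At 11 mM 11 were higher and 2 lower (all genes 14.3% and 19.1%), with a median of 1.13, beside -0.02 over all, and the lower count was 1 by DESeq2 and without ChREBPβ 2 mM a, ChREBPβ 11 mM a or ChREBPβ 11 mM b. Of the 14, 2 had at most 3 counts in each GFP library at 2 mM, and 1 of them had no more than that in each GFP library at 11 mM; the medians were again 1.78 and 1.13 with these at their bound. The filter keeps a gene that reaches the needed level in any 3 libraries, as many as a group has, so the tested genes include some that are low elsewhere. With at least 10 counts asked of each library, all 13031 genes tested had 2848 higher and 3176 lower at 2 mM, and 1971 and 2601 at 11 mM. Of 10 targets then tested, 8 were higher and 1 lower at either glucose level, with medians of 1.60 and 1.05. With no filter 16 were tested, with 11 higher and 1 lower at 2 mM and 11 and 2 at 11 mM and medians of 1.78 and 1.04. Glucose in GFP cells raised 8 and lowered 1 (all genes 10.2% and 10.0%), with a median of 0.71, or 0.57 with 2 genes that were at the floor of 3 counts in a whole group set at their bound, beside -0.00 over all. In the libraries labelled ChREBPβ glucose raised 3 and lowered 0 by edgeR and by DESeq2, beside 0.988% and 2.88% of all genes. The lower count was 1 without ChREBPβ 2 mM b. The median was 0.12, beside 0.00 over all. With no minimum fold change and an unadjusted p under 0.05, 9 were raised and 1 lowered, for which no share of all genes is given.

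Among the targets named by rule were Txnip, Gpd1 and Acaca. Txnip had a log2 fold change with the virus of 4.12 at 2 mM (SE 0.0545, edgeR adjusted p = 2.12e-21) and 0.93 at 11 mM (SE 0.0457, edgeR adjusted p = 1.54e-12). Gpd1 had a log2 fold change with the virus of 2.43 at 2 mM (SE 0.0575, edgeR adjusted p = 1.01e-17) and 1.88 at 11 mM (SE 0.0560, edgeR adjusted p = 7.13e-16). Acaca had 2.34 and 1.75. For Txnip, Gpd1 and Acaca all libraries labelled ChREBPβ lay above those with GFP. The difference of the virus effects counted as negative for 6 of the 14 targets and as positive for 0 by edgeR and by DESeq2. Over all genes these shares were 4.74% and 1.56%. With no minimum fold change and an unadjusted p under 0.05, it was negative for 9 and positive for 0, without a share of all genes. The median difference was -0.57 beside -0.01 over all. The fitted values of the 2 targets near 0 counts are no bounds. With at least 10 counts asked of each library, the difference counted as negative for 6 of 10 targets and as positive for 0. Of all 13031 genes then tested, 635 were negative and 252 positive. The median of the targets was then -0.44.

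Known targets of Myc were taken from a list of 20, of which 19 were tested, while Ldha had too few counts. The list was chosen with earlier results of these data known, so its counts are a description and no independent test. With the virus at 2 mM, 19 of 19 were higher (all genes 21.0%), and their log2 fold changes ran from 0.28 to 1.73 around a median of 0.70, beside -0.02 over all genes. At 11 mM, 14.3% of all genes were higher and 19.1% lower. Of the Myc targets, 9 were then higher and 0 lower by edgeR, and 11 and 0 by DESeq2. The median was 0.26 beside -0.02 over all. With no minimum fold change and an unadjusted p under 0.05, 18 were higher and 0 lower. No share of all genes is given for this looser threshold. By edgeR's adjusted p under 0.05 alone, 3457 of all 14669 genes were higher and 3836 lower at 11 mM. Glucose in GFP cells raised 17 of the 19 (all genes 10.2%), with a median of 0.51 beside -0.00 over all. In the libraries labelled ChREBPβ glucose raised 0 and lowered 0 by edgeR and by DESeq2, beside 0.988% and 2.88% of all genes. The median was 0.10 beside 0.00 over all, and without ChREBPβ 2 mM c the count was 1 raised. With no minimum fold change and an unadjusted p under 0.05, 10 were raised and 1 lowered, for which no share of all genes is given here.

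The difference of the virus effects counted as negative for 16 of the 19 Myc targets by edgeR, beside 4.74% of all genes (6.31% in either direction), with a median of -0.42 beside -0.01 over all. Odc1, an enzyme of polyamine synthesis, read 126.2, 137.2 and 129.2 CPM (GFP, 2 mM), 208.3, 200.4 and 211.7 CPM (GFP, 11 mM), 429.0, 440.1 and 435.7 CPM (ChREBPβ, 2 mM) and 489.7, 521.4 and 508.0 CPM (ChREBPβ, 11 mM). All 4 groups of Odc1 stood apart, in the order of Myc. Cad, Ccnd2 and Tfrc, the other targets named by rule, had log2 fold changes with the virus of 1.19, 1.40 and 1.02 at 2 mM and 0.56, 0.92 and 0.57 at 11 mM. Of the 19 tested targets and Ldha, 19 had a promoter window, and CACGTG was in 6 of them, Fbl, Ldha, Srm, Eif4e, Cdk4 and Mybbp1a, beside 7.08% of all genes with a window. The variant CACGCG was in 5 of the 19, beside 9.54%.

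**Figure D4:**
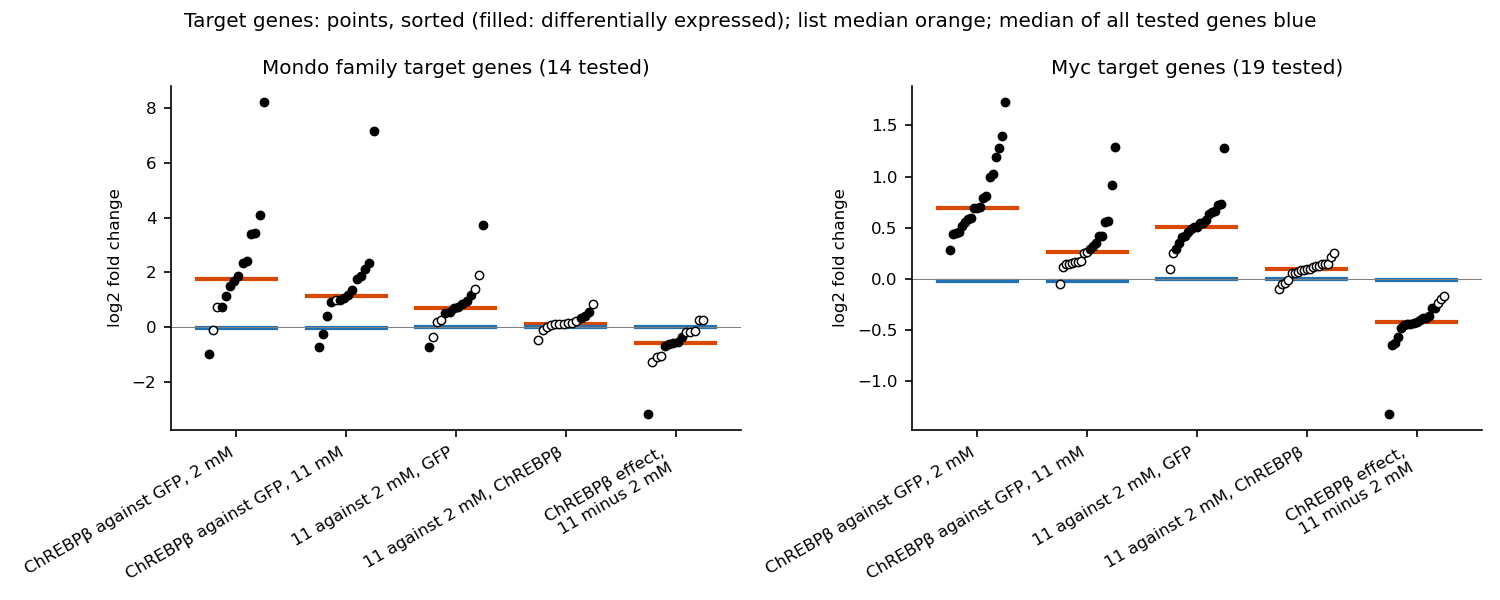
Log2 fold change (vertical axis) of the known targets of ChREBP and MondoA (left) and of Myc (right) in 4 comparisons and in the difference of the virus effects, 1 point a gene, filled where it counted as changed. The orange line is the list's median and the blue line the median of all tested genes. The medians of the Myc targets lie at 0.70 and 0.26 with the virus and at -0.42 in the difference. Both lists were chosen with earlier results of these data known.

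The co-repressors, cofactors and regulators of the members were set beside all genes, of which 21.0% were higher and 23.2% lower with the virus at 2 mM and 14.3% and 19.1% at 11 mM. Of 13 Sin3 and NCoR co-repressor subunits, 3 were higher and 0 lower with the virus at either glucose level, by edgeR and by DESeq2. Their medians were 0.12 and 0.13, beside -0.02 over all genes in either comparison. With no minimum fold change and an unadjusted p under 0.05, 7 were higher and 3 lower at 2 mM. At 11 mM these counts were 6 and 1, and no share of all genes at this looser threshold is given here. Ing2, a Sin3 subunit, rose by 0.68 at 2 mM (SE 0.0490, edgeR adjusted p = 4.28e-10) and 0.51 at 11 mM (SE 0.0472, edgeR adjusted p = 2.38e-08). The medians of 13 Myc cofactors were 0.10 at 2 mM and 0.13 at 11 mM. With no minimum fold change and an unadjusted p under 0.05, 6 were higher at 2 mM, 5 at 11 mM and 0 lower. Here too no share of all genes is given. Of these 13, 2 counted as higher at 2 mM, 1 at 11 mM and 0 as lower by edgeR and by DESeq2. These last counts stand beside the same shares of all genes. These small counts move when 1 library is left out, for the cofactors to between 1 and 4 at 2 mM (1 without GFP 2 mM a or ChREBPβ 2 mM c, 4 higher and 1 lower without GFP 2 mM b) and to between 0 and 3 at 11 mM (0 without GFP 11 mM a, GFP 11 mM c or ChREBPβ 11 mM a, 3 without GFP 11 mM b).

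Of 11 tested genes that act on the stability of the Myc protein, 4 were higher and 1 lower at 2 mM (5 of 11 changed, beside 44.1% of all genes) and 1 higher and 1 lower at 11 mM (beside 33.4%), with medians of 0.15 and 0.12. The lower count at 2 mM was 2 without GFP 2 mM c, ChREBPβ 2 mM b or ChREBPβ 2 mM c, and the higher count at 11 mM was 2 without GFP 11 mM b. Aurka, a kinase that stabilises Mycn protein, rose by 0.66 at 2 mM (SE 0.0411, edgeR adjusted p = 3.68e-11) and 0.50 at 11 mM (SE 0.0400, edgeR adjusted p = 2.45e-09). Usp28, which removes ubiquitin from Myc, fell by 0.47 and 0.44 on the log2 scale. Of 10 regulators of ChREBP, 4 were higher and 1 lower at 2 mM by edgeR and by DESeq2, beside 44.1% of all genes changed. At 11 mM 1 was higher and 0 lower by both, beside 33.4%. The counts at 11 mM were 5 and 1 with no minimum fold change and an unadjusted p under 0.05, without a share of all genes. The medians were 0.09 and 0.10 at 2 and 11 mM. The lower count at 2 mM was 2 without GFP 2 mM c, and the higher count at 11 mM was 2 without GFP 11 mM b, ChREBPβ 11 mM b or ChREBPβ 11 mM c. Slc2a2, the glucose transporter of the β-cell, rose by 0.50 and 0.46.

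Of 8 tested further E-box factors of this structural class, 3 were higher and 1 lower with the virus at either glucose level (medians 0.02 and 0.04), beside 44.1% of all genes changed at 2 mM and 33.4% at 11 mM, and the lower count at 2 mM was 3 without GFP 2 mM a and 2 without GFP 2 mM b, ChREBPβ 2 mM a, ChREBPβ 2 mM b or ChREBPβ 2 mM c. Tfap4 rose by 0.52 and 0.48, Usf2 by 0.48 and 0.30, and Srebf2 by 0.38 and 0.34, while Mitf had -0.56 and -0.46. At 11 mM the value of Usf2 was 0.22 with library totals and 0.26 without GFP 11 mM b, both under the minimum fold change, and that of Srebf2 was 0.26 with library totals.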

How the data were processed

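RNA-seq counts of 12 libraries of INS-1 cells were used, 3 for each of 4 groups of virus (GFP or ChREBPβ) and glucose (2 or 11 mM), which were set by the labels. The authors amplified the RNA, sequenced paired ends, counted reads per gene and deposited raw counts without normalization. The submitters' processing notes name the Rnor_6.0 build and edgeR, whose version the study's methods give, while the aligner and counter are not given in the sources used here. The table also holds 4 columns of group means, which were not used, and 0 other columns of values for single samples. An unnamed entry, with 0.0043% to 0.00601% of a library's counts, was left out. Of the 28727 names, 26 look like dates and 2 occur more than once.

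The tools were R 4.3.3, edgeR 4.0.16, limma 3.58.1, DESeq2 1.42.0, Python 3.11.15 and matplotlib 3.10.9. Genes were filtered by filterByExpr with the group, which kept 14669, scaled by TMM and fitted in 1 quasi-likelihood fit of all 12 libraries without a block. The 6 comparisons and the interaction were adjusted by Benjamini-Hochberg within each. A gene counted as changed with an adjusted p under 0.05 and at least 1.2-fold. The SE is the size of the log2 fold change over the square root of F. Correlations used log2 CPM with a prior count of 2. A group with at most 3 counts in each library was at the floor. The steps were tested on simulated data in which 200 genes had a known change.

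Library totals lay between 25.8 and 60.5 M counts, and pairs of libraries of a group differed beyond counting noise (chi-square over degrees of freedom 3.13 to 17.5). Besides the 10 members, genes named are up to 4 per list that changed alike with the virus at both glucose levels (mean of at least 1 CPM, largest mean change), the 3 genes most like Mlxipl, ChREBPb and Myc (mean of at least 5 CPM), and markers. Genes of the lists named for a motif, and Mga, were chosen after their values were seen. The members and lists were chosen with earlier results of these data known. Alternatives were RLE and upper quartile factors, library totals, DESeq2, no filter, a minimum of 10 counts in each library, a replicate block, fits of the groups compared only, no minimum fold change, a minimum of 2, and leaving out each library. Promoter windows came from RefSeq (GRCr8). The values of 2 single genes from the lists are not reported here.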

Additional observations from a re-analysis of the deposited data

Results flagged for a closer look

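For the results given here, the effect of ChREBPβ at 11 mM differed from that at 2 mM by a test of the difference itself, with edgeR's adjusted p under 0.05 and a difference of at least 1.2-fold. No explanation for them was tested. Among the members this was Myc, with a difference of -1.05 (SE 0.0688, edgeR adjusted p = 3.47e-09). In the 2 target lists it was 6 of the 14 tested Mondo targets and 16 of the 19 tested Myc targets, all negative. DESeq2 gave 6 and 15. Both lists were chosen with earlier results of these data known. Of all 14669 genes, 696 were negative and 229 positive by edgeR. In further lists, 1 co-repressor subunit and 1 gene of Myc protein turnover were negative by edgeR. Of the ChREBP regulators, 1 was positive and 1 negative by edgeR. Genes named here were chosen for large changes with the virus at both glucose levels. The known Mondo targets named were Txnip with -3.20 (SE 0.0692, edgeR adjusted p = 7.35e-17), Gpd1 with -0.55 (SE 0.0771, edgeR adjusted p = 0.000104) and Acaca with -0.58 (SE 0.0873, edgeR adjusted p = 0.000211). The Myc targets named were Odc1 with -0.44 (edgeR adjusted p = 4.90e-05), Ccnd2 with -0.48 (edgeR adjusted p = 0.000899), Cad with -0.63 (edgeR adjusted p = 3.44e-05) and Tfrc with -0.45 (edgeR adjusted p = 2.44e-05). The β-cell marker Pdx1 had 0.28 (SE 0.0610, edgeR adjusted p = 0.00621), and it fell under the minimum fold change without GFP 2 mM c (0.26), GFP 11 mM b (0.25) or ChREBPβ 2 mM a (0.26).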

How the results depend on the processing

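For the 10 members, 643 of 690 log2 fold changes kept their direction and their side of the threshold under settings other than leaving out a library; 20 fell below the threshold, 16 passed it and 11 changed sign. On leaving out a library it was 800 of 840, with 13, 3 and 24. For the other named genes it was 1091 of 1185, with 79 below, 15 past and 0 of changed sign, and on leaving out a library 1417 of 1440, with 15, 5 and 3. Of 3270 counts of list genes, 3100 stayed within 1.5 times their value and 170 did not.

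Signs changed only for small values, and the cause was not tested. Mlxip gave 0.01 (RLE) and 0.00 (DESeq2) for ChREBPβ against GFP at 11 mM, -0.05 (upper quartile) and -0.09 (library totals) at 2 mM, -0.00 (upper quartile) and -0.06 (library totals) for ChREBPβ at 11 mM against GFP at 2 mM, and 0.00 (upper quartile) for the interaction. With library totals Mlx gave -0.04 at 2 mM and -0.01 at 11 mM for ChREBPβ against GFP, Mnt -0.01 for ChREBPβ at 11 mM against GFP at 2 mM, and Max -0.02 for ChREBPβ at 2 mM against GFP at 11 mM.

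Leaving out 1 library gave ranges that cross 0. For Mlxip these were -0.03 to 0.05 (ChREBPβ against GFP at 2 mM), -0.09 to 0.10 (at 11 mM), -0.05 to 0.15 (glucose in GFP), -0.04 to 0.09 (glucose in ChREBPβ), -0.03 to 0.11 (ChREBPβ at 11 mM against GFP at 2 mM), -0.14 to 0.06 (ChREBPβ at 2 mM against GFP at 11 mM) and -0.11 to 0.09 (interaction). Mlx gave -0.06 to 0.01 for ChREBPβ at 11 mM against GFP at 2 mM and -0.03 to 0.05 for the interaction. For ChREBPβ at 2 mM against GFP at 11 mM, Mxd1 gave -0.14 to 0.01 and Mlxipl -0.04 to -0.00 or 0.00. For glucose in ChREBPβ, ChREBPb gave -0.12 to 0.02, Mxd4 -0.04 to -0.00 or 0.00, Mycn -0.02 to 0.16 and Mycl -0.13 to 0.03. The interaction of Mycn gave -0.23 to -0.00 or 0.00.

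Members that changed with glucose in ChREBPβ numbered 0 to 1 on leaving out a library. With no minimum fold change, members numbered 8 for ChREBPβ against GFP at 2 mM and 7 for glucose in GFP. They numbered 2 for glucose in ChREBPβ and 2 for the interaction. Of all 14669 genes, 8606, 5030, 1100 and 1184 changed in the same order. For ChREBPβ at 2 mM against GFP at 11 mM it was 6109 genes. With a minimum of 2, members numbered 2 and 0 for ChREBPβ against GFP at 2 and 11 mM, 1 and 0 for glucose in GFP and in ChREBPβ, 3 for ChREBPβ at 11 mM against GFP at 2 mM and 0 for ChREBPβ at 2 mM against GFP at 11 mM. All genes then numbered 1456, 992, 294, 28, 1866 and 795 in that order and 108 for the interaction. These follow from the threshold itself.

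Libraries of the same letter in different groups did not pair: over 18 such pairs the correlation of what is left after the group means lay between -0.114 and 0.0644, with 0 above 0.1. With the letter as a replicate block, 4, 5, 3, 1, 5, 4 and 1 members changed in the 7 comparisons. Of all 14669 genes, 6449 changed for ChREBPβ against GFP at 2 mM and 4861 at 11 mM. Glucose changed 2938 in GFP and 547 in ChREBPβ. It was 7379 for ChREBPβ at 11 mM against GFP at 2 mM. The count was 3926 for ChREBPβ at 2 mM against GFP at 11 mM and 912 for the interaction. All of this holds for the settings named here. The RNA was amplified, and each group had 3 libraries.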
